A study of Mus musculus with 56 samples.

Results

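The aminoacyl-tRNA synthetases are the enzymes that attach each amino acid to its transfer RNA (tRNA). The 36 genes described here were chosen by name, as the cytosolic enzymes (20 genes) and the mitochondrial enzymes whose symbols end in 2 (16 genes), and all 36 were among the 17027 genes of the deposited kidney table. The rule that picks them uses the symbol alone and no measured value, but it was set with earlier results of these data known. They were followed in whole kidneys of female C57BL/6J mice, which arrived at 7 weeks of age and were 9 weeks old at collection. All mice were kept in a cycle of 12 h light and 12 h dark, were entrained for 7 days with normal chow and water freely available, and were then given food for 7 days either by day alone (daytime-restricted feeding, DRF) or by night alone (nighttime-restricted feeding, NRF, the reference). Collection followed zeitgeber time (ZT, counted in hours from lights on) at 0, 4, 8, 12, 16, 20 and 24, with 4 libraries for each regimen and time, so that 28 DRF and 28 NRF libraries formed 14 groups. The clock hours at which food was given are not stated in the sources used here. The labels do not say that each library came from a separate mouse, so the p-values below measure the spread between these libraries.

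Cytosolic synthetases charge the tRNAs read by cytosolic ribosomes, and the mitochondrial set, made from nuclear genes and imported, charges the tRNAs encoded by mitochondrial DNA. Gars and Kars each supply both compartments from a single gene, and Eprs carries the activities for glutamate and proline in one protein. By the fold of their catalytic site the enzymes belong to class I or class II. Several cytosolic enzymes sit in the multi-tRNA synthetase complex, which is held together by the scaffold proteins Aimp1, Aimp2 and Eef1e1. Many cytosolic synthetase genes are known targets of ATF4, the transcription factor of the amino acid response, which binds C/EBP-ATF response elements. The kidney is a site of amino acid reabsorption and of serine and arginine synthesis, and its tubules hold many mitochondria.

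Promoters are shown first, because members that moved together over the day are compared below. They come from RefSeq on GRCm38.p6, and 27 of the 36 members had an entry. Each spans 250 bases before to 50 bases after a start point given for the gene, 300 bases in all. That point need not be the first base of the gene's annotated span. For Aars the whole window lies inside that span, which begins at chr8:111027778. For Yars the start point lies inside the span, which begins at chr4:129189734. The letters searched, on both strands, were TGATGNAA (a C/EBP-ATF response element), CACGTG (an E-box, the site of CLOCK and BMAL1 among others) and CCGGAAGT (an ETS site), beside the palindrome of nuclear respiratory factor 1. The 6 promoters below belong to members named later for a rhythm that differed between regimens, and capitals mark every match, in whichever strand it read. The first 4 are cytosolic, namely Qars at chr9:108507755-108508054 on the plus strand, Yars at chr4:129189653-129189952 on the plus strand, Farsa at chr8:84856736-84857035 on the plus strand and Aars at chr8:111033592-111033891 on the plus strand. The other pair is mitochondrial, Cars2 at chr8:11550722-11551021 on the minus strand and Yars2 at chr16:16302715-16303014 on the plus strand.
Qars: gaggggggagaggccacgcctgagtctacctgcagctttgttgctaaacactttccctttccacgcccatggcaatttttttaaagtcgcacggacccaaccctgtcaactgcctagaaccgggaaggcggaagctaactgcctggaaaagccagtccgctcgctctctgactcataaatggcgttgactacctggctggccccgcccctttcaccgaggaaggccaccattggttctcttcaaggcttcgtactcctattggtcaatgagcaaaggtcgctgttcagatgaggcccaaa
Yars: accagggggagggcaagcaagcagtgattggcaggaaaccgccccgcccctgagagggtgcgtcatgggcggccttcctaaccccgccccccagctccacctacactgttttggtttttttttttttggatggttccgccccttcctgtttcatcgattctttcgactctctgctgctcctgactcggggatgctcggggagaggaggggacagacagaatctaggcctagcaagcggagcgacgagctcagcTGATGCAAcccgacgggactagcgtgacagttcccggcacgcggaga
Farsa: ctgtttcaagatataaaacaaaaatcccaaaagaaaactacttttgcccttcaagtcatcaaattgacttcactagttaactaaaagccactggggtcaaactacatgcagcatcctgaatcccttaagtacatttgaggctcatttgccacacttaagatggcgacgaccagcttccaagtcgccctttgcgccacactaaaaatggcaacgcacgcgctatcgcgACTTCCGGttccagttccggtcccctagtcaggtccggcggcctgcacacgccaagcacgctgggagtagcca
Aars: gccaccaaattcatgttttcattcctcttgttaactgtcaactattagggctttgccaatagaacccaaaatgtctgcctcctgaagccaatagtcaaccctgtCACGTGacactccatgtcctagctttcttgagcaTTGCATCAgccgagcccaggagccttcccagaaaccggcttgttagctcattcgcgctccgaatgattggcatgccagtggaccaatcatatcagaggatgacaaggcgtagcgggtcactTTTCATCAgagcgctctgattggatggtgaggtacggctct
Cars2: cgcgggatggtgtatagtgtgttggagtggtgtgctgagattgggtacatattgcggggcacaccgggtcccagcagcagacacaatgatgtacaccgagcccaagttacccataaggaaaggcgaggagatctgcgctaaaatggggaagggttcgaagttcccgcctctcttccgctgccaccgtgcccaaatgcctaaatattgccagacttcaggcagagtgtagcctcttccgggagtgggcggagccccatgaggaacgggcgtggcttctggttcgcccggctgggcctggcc
Yars2: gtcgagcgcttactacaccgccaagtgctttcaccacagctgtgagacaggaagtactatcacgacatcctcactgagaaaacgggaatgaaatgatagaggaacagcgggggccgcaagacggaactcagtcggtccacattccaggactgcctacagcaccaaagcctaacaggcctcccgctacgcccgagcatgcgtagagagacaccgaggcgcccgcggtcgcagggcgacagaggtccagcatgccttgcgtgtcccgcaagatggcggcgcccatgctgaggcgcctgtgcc

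The C/EBP-ATF letters occurred in the promoters of 5 of 13 cytosolic members with an entry (Aars, Gars, Iars, Tars and Yars, with a pair of matches in Aars) and of 0 of 14 mitochondrial members, against 3.97% of 32851 promoters in the table. The E-box letters occurred in 4 cytosolic members (Aars, Farsb, Iars and Tars) and in 1 mitochondrial member (Ears2), against 7.15% of all promoters, and Aars, Iars and Tars held both motifs. In Aars the E-box began 146 bases before the start point of its window. One C/EBP-ATF match of Aars began 112 bases before that point. The ETS letters occurred in Farsa, Mars1 and Rars2, against 3.89% of all promoters. The nuclear respiratory factor letters occurred in 0 of the 27 members, against 0.971% of all promoters. These motifs do not overlap one another in the sequences shown, and a match is a description of letters, not a shown binding site.

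The libraries held between 22.1 M and 24.5 M recovered reads. Levels are given as TPM, reads per length of transcript scaled to the library, recovered from the deposited values, and differences are in log2(TPM + 1). The nephron markers were present in every library, with the summed level of Slc34a1, Lrp2 and Slc22a6 (proximal tubule) between 3017 and 6515 TPM and that of Umod and Slc12a1 (thick ascending limb) between 3817 and 9384 TPM. The adrenal markers Cyp11a1 and Star together stayed between 3.99 and 7.07 TPM. The adipose markers Adipoq, Plin1 and Cfd ranged together from 0 to 2647 TPM, with the highest sums in NRF ZT12 replicate 1 and NRF ZT16 replicate 1 (1693 TPM). In whole tissue, fewer cells of a type and less RNA per cell cannot be told apart.

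All 36 members passed the filter of a mean of at least 1 TPM, which 12232 genes passed. The cytosolic enzymes had means over the 56 libraries from 10.4 TPM (Cars, cysteine) to 172 TPM (Nars, asparagine), with a median of 46.7 TPM. The mitochondrial enzymes had means from 2.65 TPM (Mars2, methionine) to 51.1 TPM (Rars2, arginine), with a median of 13.9 TPM. Next to Nars in the order of mean levels stood Gars (101 ± 8.54 TPM, SD over 56 libraries), Hars (80.4 ± 4.75), Sars (77.9 ± 5.10) and Dars (77.2 ± 5.69), and the last 3 lay within 1 SD of each other. Rars2 and Iars2 (46.7 ± 3.82 TPM) were the only mitochondrial members above 30 TPM, and both lay among the middle of the cytosolic set. The lengths behind the levels of Hars, Lars and Nars were found by search, and the length of Farsb was taken from the annotation although it did not give whole reads, so their place in this order rests on those lengths.

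Under NRF, 16 of 20 cytosolic and 11 of 16 mitochondrial members had a 24-h rhythm (limma F test, adjusted p below 0.05 over all genes), where 54.4% of all genes tested did. The cytosolic rhythms peaked late in the night for 10 of those 16, between ZT18 and ZT24, and between ZT2 and ZT10 for the other 6. In the mitochondrial set 3 of 11 peaked between ZT18 and ZT24, 2 between ZT0 and ZT2 and 6 between ZT2 and ZT10. Over all genes, 28.3% of the NRF rhythms peaked between ZT18 and ZT24, and this share was 36.4% after median-of-ratios rescaling, under which it covered 11 of 15 cytosolic and 7 of 12 mitochondrial members.

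Under DRF, 9 cytosolic and 5 mitochondrial members had a 24-h rhythm, against 35.9% of all genes, and all 14 peaked between ZT4 and ZT12, as did 1676 of the 4395 rhythmic genes. The cytosolic count under DRF was 4 without replicate 1, 2 without replicate 2, 6 without replicate 3 and 5 without ZT24, and the mitochondrial count was 3 without replicate 2 or replicate 3. A rhythm in both regimens was called in 7 cytosolic and 4 mitochondrial members, against 25.4% of all genes. Amplitudes were small, with a median of 0.14 in the cytosolic set under NRF and 0.09 under DRF, against 0.13 and 0.11 over all genes. The mitochondrial medians were 0.14 and 0.09. An amplitude is the distance from the mean to the peak of the fitted cosine on the log2 scale.

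**Figure D1:**
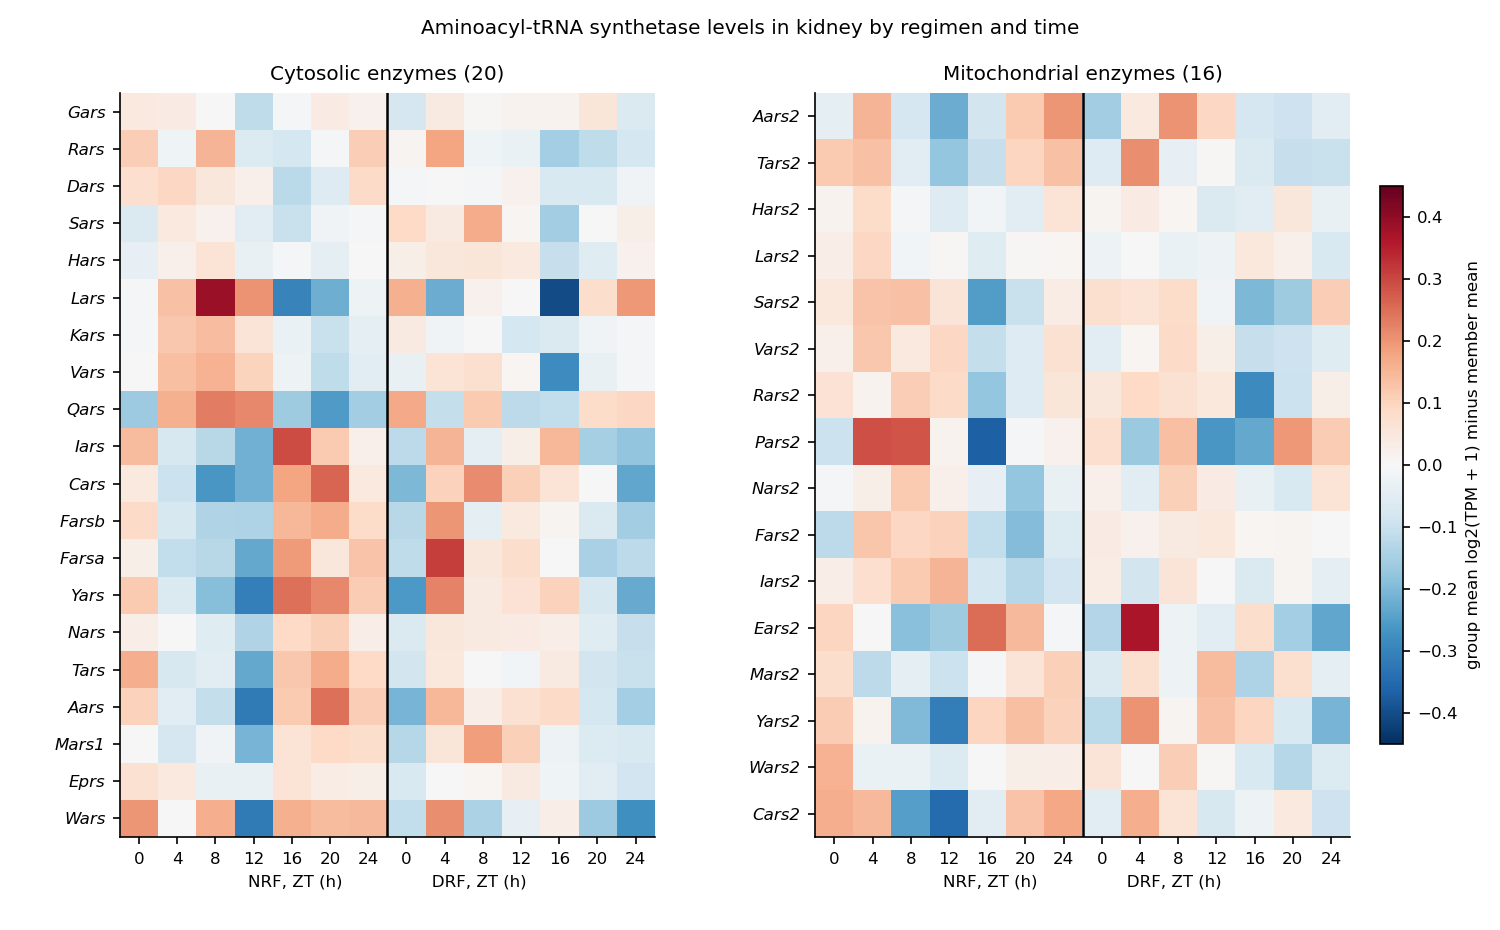
Group means of log2(TPM + 1) minus the member's mean over the 14 groups, for all 36 synthetases in rows ordered by the fitted NRF peak, with NRF and DRF times in columns. In Aars, Cars, Farsa, Farsb, Iars, Mars1, Nars, Tars and Yars the NRF mean is lower at ZT12 than at ZT16, ZT20 and ZT24, and the DRF means are lower at ZT0 and ZT24 than from ZT4 to ZT12.

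The rhythm itself differed between DRF and NRF for 13 of 20 cytosolic and 9 of 16 mitochondrial members (interaction of regimen with the 24-h terms), where 45.4% of all genes tested did. The 13 cytosolic members fell into separate ranges of phase. Aars, Cars, Farsa, Farsb, Iars, Mars1, Nars, Tars, Wars and Yars had fitted NRF peaks between ZT19.6 and ZT22.9 and fitted DRF peaks between ZT7.7 and ZT10.7, a fitted displacement of at least 8 h in each. Farsb, Iars, Tars and Wars had no called DRF rhythm (limma, adjusted p = 0.114, 0.144, 0.359 and 0.372), and the SE of the displacement was 2.6 h for Tars and 2.7 h for Wars, so their DRF peaks are less certain. Kars, Lars and Qars had fitted NRF peaks between ZT7.1 and ZT8.2 and fitted DRF peaks between ZT0.5 and ZT1.8, a fitted displacement of 5.6 to 7.8 h, and none of these had a called DRF rhythm (adjusted p = 0.268, 0.101 and 0.0580). After rescaling the displacement was 7.8 h for Iars and 8.7 h for Qars, so that the ranges of displacement met. Over all genes with a differential rhythm, 2676 of 5551 were displaced by at least 8 h. After rescaling, Eprs, Gars, Rars and Mars2 also passed, which made 16 cytosolic and 10 mitochondrial members, where 6086 of the 12232 genes passed.

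Yars, the tyrosine enzyme, was lowest at ZT12 under NRF and at ZT0 and ZT24 under DRF. At ZT12 its NRF libraries held 16.6, 17.2, 16.6 and 17.7 TPM and its DRF libraries 21.97, 22.9, 25.3 and 19.5 TPM. The lowest DRF library was above the highest NRF library, and DRF was higher by 0.37 ± 0.07 log2 (SE, limma, adjusted p = 0.000139). At ZT0 the order was the opposite, with NRF libraries at 25.2, 22.7, 20.7 and 24.4 TPM and DRF libraries at 18.7, 15.3, 17.5 and 19.3 TPM. The ZT0 groups did not overlap either, and the difference over ZT0 and ZT24 together was -0.36 ± 0.05 log2 (adjusted p = 2.36e-07). Yars peaked at ZT20.4 ± 0.5 h under NRF and at ZT10.3 ± 1.1 h under DRF (SE), and its differential rhythm had an adjusted p of 3.3e-07 in limma.

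Cars, the cysteine enzyme, had the lowest level of the cytosolic set and a rhythm in each regimen. At ZT8 its NRF libraries held 9.59, 8.41, 8.15 and 7.75 TPM and its DRF libraries 12.8, 11.3, 12.4 and 12.1 TPM. The groups did not overlap, and the difference of 0.48 ± 0.07 log2 (limma, adjusted p = 7.96e-06) was the largest difference at a shared ZT among called cytosolic members. At ZT20 the NRF libraries were the higher ones, at 12.2, 11.4, 13.2 and 13.7 TPM against 9.67, 9.40, 11.1 and 11.2 TPM under DRF. The groups did not overlap at ZT20 (-0.26 ± 0.07 log2, limma, adjusted p = 0.0100). The fitted peak lay at ZT19.7 under NRF and at ZT10.4 under DRF (differential rhythm, adjusted p = 2.98e-09).

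Aars, the alanine enzyme whose promoter held an E-box and C/EBP-ATF letters, was at 34.8, 30.9, 28.7 and 32.9 TPM in the NRF libraries of ZT12. The DRF libraries of ZT12 were at 39.9, 42.1, 44.5 and 41.1 TPM, all above the NRF ones. DRF was higher by 0.39 ± 0.07 log2 (limma, adjusted p = 5.67e-05), and by 0.43 log2 without the NRF libraries high in adipose markers. The Aars gene shares 3974 bases of its span with Ddx19b in the annotation, and whether the counting used the strand is not given in the sources used here.

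Farsa encodes the catalytic subunit of the cytosolic phenylalanine enzyme, and Farsb encodes its partner subunit. At ZT4 the NRF libraries of Farsa held 13.1, 11.7, 13.5 and 13.4 TPM and the DRF libraries 17.2, 18.2, 17.0 and 18.02 TPM. The groups were apart by more than their spread, with DRF higher by 0.42 ± 0.06 log2 (limma, adjusted p = 2.42e-06). Farsb moved the same way at ZT4, by 0.27 ± 0.06 log2 (adjusted p = 0.000596). The fitted peaks of both subunits lay close together in each regimen, at ZT20.2 and ZT20.0 under NRF and at ZT7.7 and ZT8.9 under DRF.

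Qars, the glutamine enzyme of the synthetase complex, ran opposite to these. Under NRF it was high through the day and low at night, with 54.1, 57.5, 56.3 and 51.2 TPM at ZT12 and 38.8, 41.8, 38.2 and 38.3 TPM at ZT20. Under DRF it had 44.3, 44.8, 41.4 and 42.7 TPM at ZT12 and 47.3, 46.8, 51.8 and 53.6 TPM at ZT20. The regimens did not overlap at either time, and DRF was lower at ZT12 by -0.33 ± 0.05 log2 (limma, adjusted p = 7.27e-06) and higher at ZT20 by 0.34 ± 0.05 log2 (adjusted p = 5.26e-06). Its NRF amplitude of 0.28 ± 0.02 was the second after Lars in the cytosolic set, and its DRF rhythm missed the threshold (adjusted p = 0.0580). Its differential rhythm had an adjusted p of 5.95e-09 in limma.

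Lars, the leucine enzyme and a known leucine sensor for mTORC1, had the largest NRF amplitude of all 36 members (0.31 ± 0.04 log2). Its NRF libraries held 45.6, 48.1, 37.4 and 44.2 TPM at ZT8 and 24.1, 27.99, 27.4 and 27.4 TPM at ZT16. The DRF libraries held 34.8, 35.3, 31.1 and 33.3 TPM at ZT8, all below the NRF ones (-0.37 ± 0.08 log2, limma, adjusted p = 0.00125). At ZT16 the DRF libraries held 25.8, 24.2, 23.6 and 25.7 TPM, a range that overlapped that of NRF. Kars, the lysine enzyme of the same complex, had a smaller NRF amplitude of 0.12 ± 0.03 log2 and did not pass at any shared ZT, although its differential rhythm passed (limma, adjusted p = 0.00573).

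Wars, the tryptophan enzyme, which interferon gamma is known to induce, was at 66.4, 58.4, 54.7 and 51.7 TPM in the NRF libraries of ZT0 and at 49.1, 42.0, 47.1 and 46.9 TPM in the DRF libraries. The groups did not overlap, and over ZT0 and ZT24 DRF was lower by -0.37 ± 0.06 log2 (limma, adjusted p = 1.26e-05). Its differential rhythm (adjusted p = 0.0303) was lost without replicate 1 (adjusted p = 0.153), replicate 2 (adjusted p = 0.242), replicate 3 (adjusted p = 0.0544) or ZT24 (adjusted p = 0.165), by limma in each case. One NRF library of ZT12, at 46.6 TPM, stood above the rest, which lay between 37.6 and 38.4 TPM, and it was the library with the highest adipose marker sum.

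**Figure D2:**
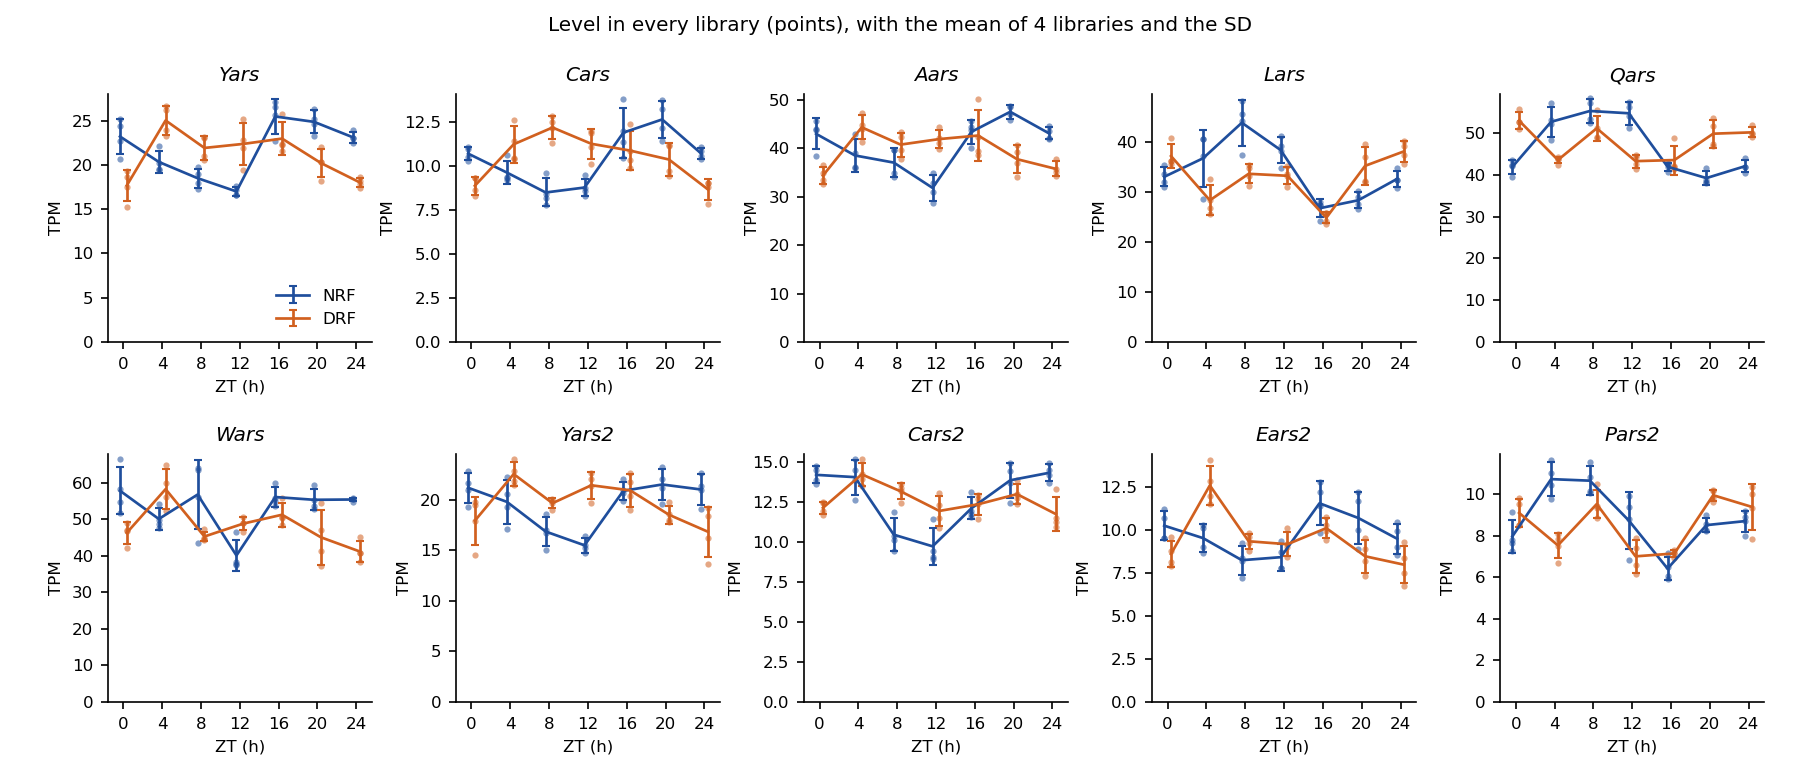
TPM of each library (points) with the mean ± SD of 4 libraries at each ZT, for NRF and DRF, in 10 synthetases (Yars, Cars, Aars, Lars, Qars and Wars of the cytosolic set, Yars2, Cars2, Ears2 and Pars2 of the mitochondrial set). Yars has its lowest NRF mean at ZT12 (17.0 TPM) and its lowest DRF mean at ZT0 (17.7 TPM), and Qars has its highest NRF mean at ZT8 (55.3 TPM).

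The 9 mitochondrial members with a differential rhythm were spread over more phases. Yars2 and Ears2 had fitted NRF peaks at ZT21.7 and ZT19.5 and fitted DRF peaks at ZT10.4 and ZT7.7, in the range of the larger cytosolic group or beside it. Cars2, Wars2, Aars2 and Tars2 had fitted NRF peaks between ZT22.7 and ZT0.6 and fitted DRF peaks between ZT5.8 and ZT8.6. Pars2 peaked at ZT5.7 under NRF and at ZT0.0 under DRF. Fars2 and Iars2 peaked at ZT7.7 and ZT8.0 under NRF, and their fitted DRF amplitudes were 0.01 ± 0.02 and 0.01 ± 0.03 log2 (SE), so their DRF phases are not interpreted. A displacement of at least 8 h was found in 4 of the 9 (Aars2, Ears2, Wars2 and Yars2). Of the 9, Aars2 and Yars2 alone had a called DRF rhythm. It was not called for Ears2, Wars2, Cars2, Tars2 and Pars2 (limma, adjusted p = 0.138, 0.0871, 0.302, 0.0637 and 0.0521), so their DRF peaks are less certain. Wars2 had no called NRF rhythm either (limma, adjusted p = 0.0911). The call of Wars2 was lost without replicate 1, 2 or 3 (limma, adjusted p = 0.101, 0.0522 and 0.0614) and that of Fars2 without replicate 3 (adjusted p = 0.0722).

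Yars2, the mitochondrial tyrosine enzyme, was at 15.3, 16.4, 14.7 and 15.5 TPM in the NRF libraries of ZT12. The DRF libraries of ZT12 were at 19.6, 22.7, 21.4 and 22.02 TPM, all above the NRF ones, by 0.44 ± 0.08 log2 (limma, adjusted p = 9.66e-05). Its differential rhythm had an adjusted p of 2.09e-06. Aars2, the mitochondrial alanine enzyme, was higher under DRF at ZT12 by 0.32 ± 0.07 log2 (limma, adjusted p = 0.000760), a call that was lost without replicate 3 (0.25 log2).

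Cars2, the mitochondrial cysteine enzyme, which is also known to make cysteine persulfides, had an NRF amplitude of 0.26 ± 0.03 log2 and a DRF amplitude of 0.06 ± 0.03 log2. Its NRF libraries held 14.8, 13.9, 13.6 and 14.5 TPM at ZT0 and 8.96, 11.5, 9.07 and 9.47 TPM at ZT12. Its DRF libraries held 12.0, 12.4, 11.7 and 12.5 TPM at ZT0 and 12.3, 13.1, 10.9 and 11.5 TPM at ZT12. The NRF libraries were apart between these times and the DRF libraries were not. The differential rhythm had an adjusted p of 2.12e-06 in limma.

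Pars2 and Ears2, the mitochondrial proline and glutamate enzymes, moved opposite ways at ZT4. Pars2 was at 10.4, 11.03, 11.7 and 9.74 TPM under NRF and at 6.69, 8.07, 7.51 and 7.86 TPM under DRF, which was lower by -0.46 ± 0.08 log2 (limma, adjusted p = 3.18e-05). Ears2 was at 9.00, 10.1, 10.3 and 8.67 TPM under NRF and at 12.0, 12.8, 11.5 and 14.1 TPM under DRF, which was higher by 0.37 ± 0.09 log2 (limma, adjusted p = 0.00194). In neither gene did the ZT4 groups overlap, and the call of Ears2 was lost without replicate 4 (0.28 log2). Of the recovered read numbers of Ears2, 57.1% came out whole at its annotated length, so its level is less certain than its differences. At ZT4 the summed level of the immune markers Ptprc, Cd74 and Cd3e also differed, at 957 to 1361 TPM under NRF and 402 to 726 TPM under DRF, and its part in the ZT4 differences was not tested.

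**Figure D3:**
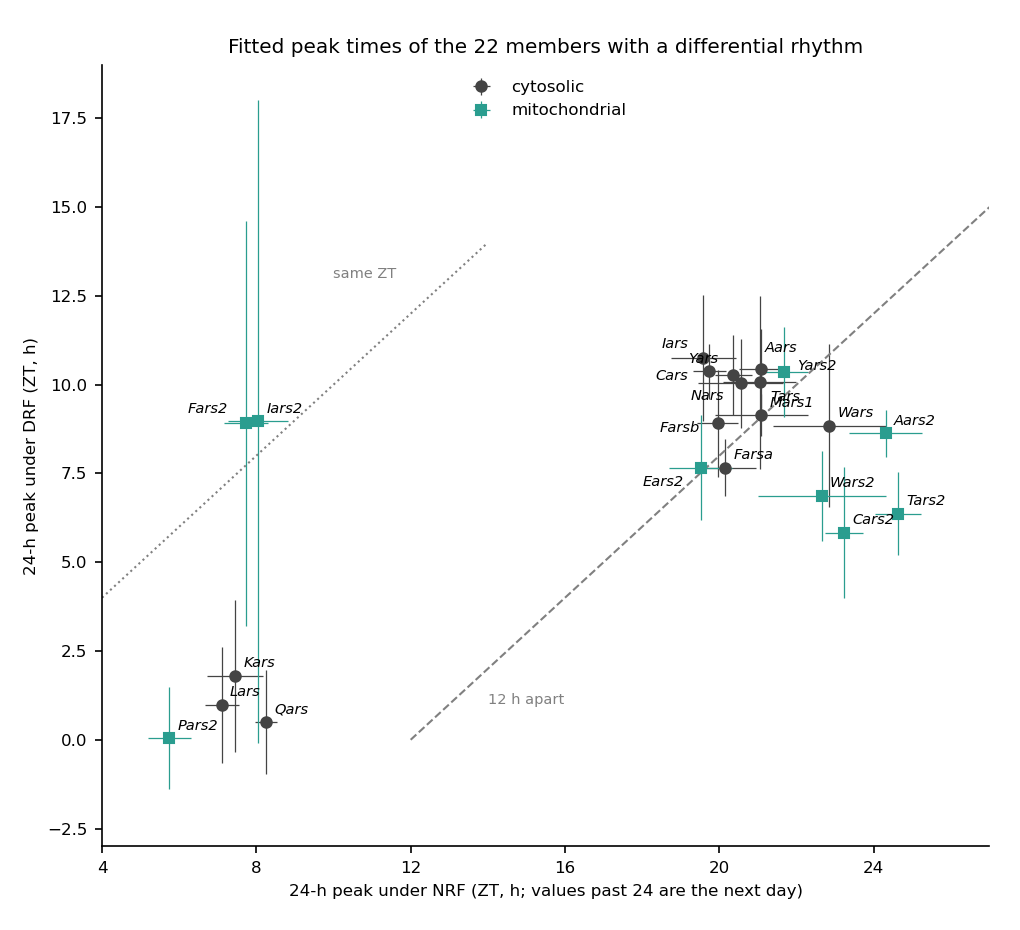
Fitted 24-h peak time under NRF (horizontal axis, ZT in hours) and under DRF (vertical axis, ZT in hours) with SE bars, for the 22 members with a differential rhythm, cytosolic and mitochondrial in separate colours, with a dotted line at the same ZT and a dashed line 12 h apart. The 10 members of the larger cytosolic group sit together at NRF peaks between ZT19.6 and ZT22.9, and Kars, Lars and Qars sit apart at NRF peaks between ZT7.1 and ZT8.2.

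The members without a differential rhythm were Dars, Eprs, Gars, Hars, Rars, Sars and Vars in the cytosolic set and Hars2, Lars2, Mars2, Nars2, Rars2, Sars2 and Vars2 in the mitochondrial set. Among them Sars2, Rars and Vars2 had a rhythm in both regimens, and after rescaling the NRF rhythm was lost for Rars (limma, adjusted p = 0.354) and Vars2 (adjusted p = 0.329) and kept for Sars2. Sars2, the mitochondrial serine enzyme, peaked at ZT5.5 ± 0.6 h under NRF and at ZT4.6 ± 0.7 h under DRF, a difference of -0.9 ± 0.9 h (SE). Rars, the arginine enzyme, peaked at ZT3.3 ± 1.3 h and ZT5.1 ± 0.7 h, and Vars2, for valine, at ZT5.6 ± 1.1 h and ZT7.5 ± 0.9 h. Lars2 was among the flattest members, with group means from 13.3 to 15.04 TPM, and its differential rhythm had an adjusted p of 0.168, which became 0.0438 without replicate 2.

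At the same ZT, 14 cytosolic and 7 mitochondrial members differed between regimens at one time or more, against 56.5% of all genes. At ZT0 and ZT24 together, 3 cytosolic members were higher under DRF (Lars, Qars and Sars) and 11 lower, where 12.6% of all genes were higher and 18.2% lower. No mitochondrial member was called higher there (2 after rescaling, where 2137 of all genes were), and 5 were lower (Aars2, Cars2, Ears2, Tars2 and Yars2). The cytosolic median was -0.13 log2 and the mitochondrial median -0.08, against -0.03 over all genes.

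At ZT12 the direction was the opposite for most called members. In the cytosolic set 8 were higher and Qars alone was lower (after rescaling Lars too), where 7.3% of all genes were higher and 11.4% lower. Among mitochondrial members Aars2, Cars2, Tars2 and Yars2 were higher and Pars2 was lower. The cytosolic median was 0.15 log2 and the mitochondrial median 0.00, against -0.03 over all genes. The adipose marker sum at ZT12 ranged from 4.14 to 2647 TPM under NRF and from 4.003 to 275 TPM under DRF, and without the NRF libraries high in these markers the ZT12 differences of Yars (0.36 log2), Yars2 (0.44), Aars2 (0.34) and Aars (0.43) still passed. The distal convoluted tubule marker Slc12a3 stood apart at ZT12, at 315 to 406 TPM under NRF and 239 to 302 TPM under DRF. Its part in the ZT12 differences was not tested.

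At ZT4, 6 cytosolic members were higher and 2 lower under DRF, where 10.3% of all genes were higher and 17.2% lower. Rescaling moved the share of higher calls among all called genes from 37.4% to 54.0% at ZT4, and the cytosolic counts to 11 higher and 2 lower. Over all genes 2091 were then higher and 1783 lower. In the mitochondrial set Ears2 was higher and Pars2 lower at ZT4, and after rescaling 3 were higher and 1 lower. At ZT8, where 6.05% of all genes were higher and 9.03% lower, 4 cytosolic members were higher and 3 lower, and 2 mitochondrial members (Aars2 and Cars2) were higher. After rescaling the cytosolic counts at ZT8 were 7 higher and 3 lower, and 4 mitochondrial members were higher. Over all genes 1127 were then higher and 1264 lower. The summed level of the collecting duct markers Aqp2, Aqp3 and Scnn1g also stood apart at ZT8, at 634 to 1242 TPM under NRF and 1289 to 1591 TPM under DRF, and the blood marker Alas2 at 4.51 to 18.9 and 21.5 to 36.1 TPM, and their part in the ZT8 differences was not tested. At ZT20, where 10.8% of all genes were higher and 6.18% lower, 2 cytosolic members were higher (Lars and Qars) and 7 lower. Rescaling moved the ZT20 share of higher calls from 63.5% to 48.4% and the cytosolic counts to 2 higher and 12 lower. Over all genes 1272 were then higher and 1354 lower. In the mitochondrial set Fars2 was higher at ZT20 and Aars2, Ears2 and Tars2 were lower, and after rescaling none was higher and 5 were lower. At ZT16 no member of either set was called in the limma test, where 4.81% of all genes were. After rescaling 1 cytosolic member was lower at ZT16, where 473 of all genes were higher and 476 lower.

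A 12-h component on top of the 24-h rhythm was tested as well. Under DRF, 10 cytosolic and 3 mitochondrial members had one, where 24.6% of all genes did. Under NRF no member passed in limma, where 0.687% of all genes did, and at an unadjusted p under 0.05 there were 5 cytosolic and 5 mitochondrial members. After rescaling the NRF count in the cytosolic set was 2, where 148 of the 12232 genes passed. The difference in the 12-h component between regimens passed for no member, where 3.52% of all genes passed. Its unadjusted p was under 0.05 for 6 cytosolic members and 0 mitochondrial members, against 17.3% of all genes. After rescaling it passed for 4 cytosolic members, where 682 of the 12232 genes passed. In the main scaling the member nearest to the threshold was Qars (limma, adjusted p = 0.0542).

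Lars had the largest 12-h amplitude under DRF, 0.26 ± 0.03 log2 (limma, adjusted p = 1.2e-06). Its DRF group means were 28.3 ± 3.04 TPM (ZT4), 33.6 ± 1.90 (ZT8), 33.2 ± 1.70 (ZT12), 24.8 ± 1.12 (ZT16) and 35.2 ± 3.75 (ZT20), each with SD and n = 4, so that the low values at ZT4 and ZT16 stood between higher values. Qars had low DRF means at ZT4 (43.6 ± 0.77 TPM), ZT12 (43.3 ± 1.54 TPM) and ZT16 (43.6 ± 3.47 TPM), with 51.2 ± 3.06 TPM at ZT8 between them. Pars2 had an amplitude of 0.21 ± 0.03 log2 (limma, adjusted p = 0.000114), with low means at the same times.

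Ears2 and Wars ran the other way under DRF, with high means at ZT4 and ZT16. Ears2 had a 12-h amplitude of 0.22 ± 0.04 log2 (limma, adjusted p = 0.000213), with 12.6 ± 1.13 TPM at ZT4 and 10.1 ± 0.56 TPM at ZT16 against 9.33 ± 0.45 TPM at ZT8. Wars had 0.18 ± 0.04 log2 (limma, adjusted p = 0.00384), with 58.3 ± 5.38 TPM at ZT4 and 51.3 ± 3.27 TPM at ZT16 against 45.3 ± 1.34 TPM at ZT8 (SD, n = 4). Yars, Iars, Farsa, Aars, Farsb, Cars and Sars of the cytosolic set and Cars2 of the mitochondrial set passed with amplitudes from 0.08 to 0.16 log2. The cytosolic count of 10 was 5 without replicate 1.

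**Figure D4:**
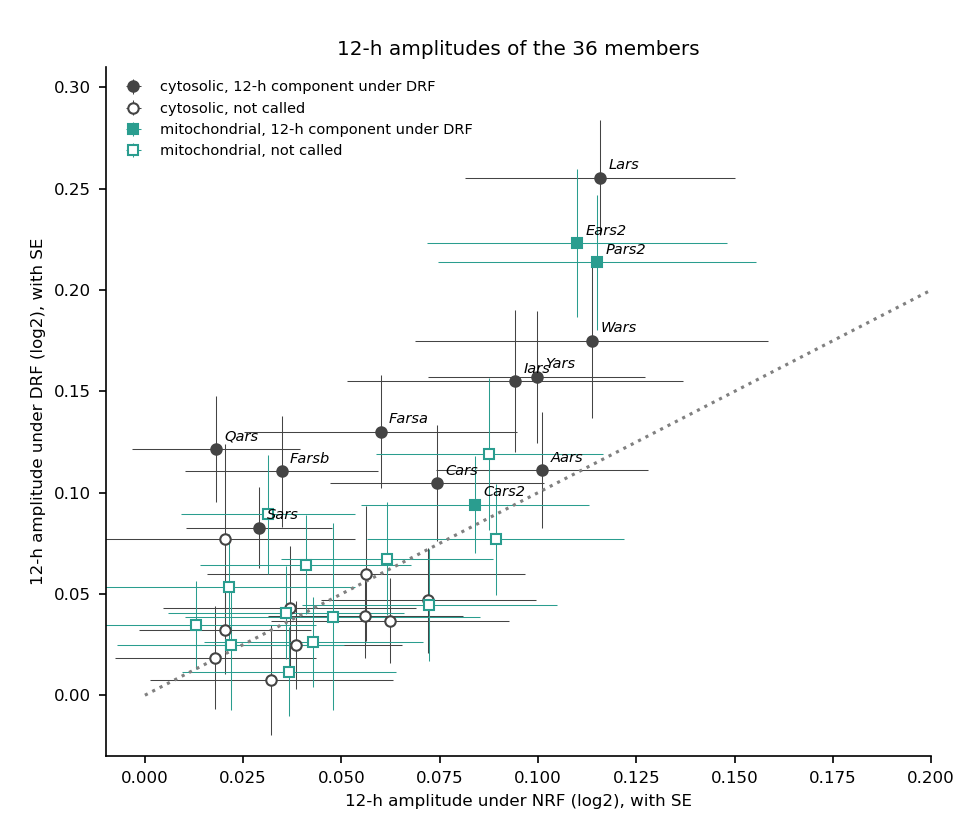
Amplitude of the 12-h component (log2 scale, with SE bars) under NRF on the horizontal axis and under DRF on the vertical axis, for all 36 members. Lars (0.26), Ears2 (0.22) and Pars2 (0.21) have the largest DRF amplitudes.

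To set the regimens side by side at the same time of the feeding cycle, DRF at each ZT was compared with NRF 12 h later, which matches meals only if the feeding windows were 12 h apart. At least one of the 6 comparisons passed for 10 cytosolic and 10 mitochondrial members, against 56.2% of all genes. The cytosolic count was 6 without replicate 3 and 16 after rescaling, and the mitochondrial count was 6 without replicate 3 and 5 on the deposited values. After rescaling, 7402 of the 12232 genes had a passing comparison. The mean absolute difference over the 6 times was a median of 0.16 log2 at the same ZT and 0.10 at the same meal time in the cytosolic set, and it was smaller at the same meal time in 15 of 20 members. The mitochondrial medians were 0.10 and 0.10, and it was smaller at the same meal time in 7 of 16 members. Over all genes the medians were 0.15 and 0.14, and it was smaller in 52.4% of the 12232 genes. The comparisons at the same ZT and at the same meal time share their libraries, so these values are a description.

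For Yars the mean absolute difference was 0.28 log2 at the same ZT and 0.10 at the same meal time, and for Farsa it was 0.25 and 0.06. For Yars2 it was 0.22 and 0.10, and for Ears2 0.22 and 0.09. Cars2 and Sars2 went the other way, with 0.16 and 0.21 log2 for Cars2 and 0.06 and 0.20 log2 for Sars2. Cars2 was called at 5 of the 6 meal-matched times and Sars2 at 3 of them, and Sars2 was called at no shared ZT. After rescaling Cars2 was called at 2 of the meal-matched times, with mean absolute differences of 0.18 log2 at the same ZT and 0.19 at the same meal time, while Sars2 was called at 3.

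Lars and Pars2 had the largest called meal-matched differences, both for DRF at ZT16 against NRF at ZT4. Lars held 25.8, 24.2, 23.6 and 25.7 TPM in the DRF libraries and 40.6, 28.6, 40.5 and 37.2 TPM in the NRF libraries, a difference of -0.53 ± 0.08 log2 (limma, adjusted p = 1.5e-06). Pars2 held 7.15, 6.94, 7.33 and 7.14 TPM and 10.4, 11.03, 11.7 and 9.74 TPM, a difference of -0.52 ± 0.08 log2 (adjusted p = 2.06e-06). In both genes every DRF library was below every NRF library. Marker sums stood apart in the same libraries, with the immune markers at 534 to 820 TPM under DRF and 957 to 1361 TPM under NRF and the thick ascending limb markers at 6695 to 7354 and 5013 to 6467 TPM. The part of these markers in the difference was not tested. The scaling of the libraries weighed most on this comparison. It moved the median of all genes by -0.11 log2, the share of higher calls among called genes was 18.3% before and 48.6% after rescaling, and relative to the rescaled libraries Lars differed by -0.42 and Pars2 by -0.42 log2.

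In that comparison no cytosolic member was higher and 5 were lower, where 6.05% of all genes were higher and 27% lower. After rescaling 9 cytosolic members were higher and 3 lower, where 1962 of all genes were higher and 2077 lower. Of the mitochondrial members 7 were lower in the main scaling and 3 after rescaling, with none higher in either. For DRF ZT8 against NRF ZT20, where 9.34% of all genes were higher and 5.32% lower, Qars had 51.2 ± 3.06 TPM under DRF and 39.2 ± 1.70 TPM under NRF (SD, n = 4), higher by 0.37 ± 0.05 log2 (limma, adjusted p = 5.52e-07). The cytosolic counts there were 3 higher and 3 lower, and 2 and 6 after rescaling, and the share of higher calls over all genes was 63.7% and 47.0%. The collecting duct markers stood apart in these libraries, at 1289 to 1591 TPM under DRF ZT8 and 539 to 652 TPM under NRF ZT20. The immune markers stood at 762 to 842 and 570 to 626 TPM. The part of these markers in the differences was not tested. For DRF ZT4 against NRF ZT16, where 14.4% of all genes were higher and 3.59% lower, 2 cytosolic and 4 mitochondrial members were higher and none of either set was lower (1 and 3 higher after rescaling, with the share of higher calls over all genes at 80.0% and 57.4%). For DRF ZT12 against NRF ZT0 and ZT24, where 4.13% of all genes were higher and 12.7% lower, 1 cytosolic and 2 mitochondrial members were lower, and 1 of each set was higher and none lower after rescaling (24.6% and 44.0% higher over all called genes). For DRF at ZT0 and ZT24 against NRF ZT12, where 5.66% of all genes were higher and 4.55% lower, Cars2 was the one member called, and it was higher by 0.27 ± 0.06 log2 (limma, adjusted p = 0.000769). After rescaling 1 mitochondrial member was higher and 1 lower there, where 733 of all genes were higher and 750 lower. For DRF ZT20 against NRF ZT8, where 4.16% of all genes were higher and 7.98% lower, 1 cytosolic member was higher (Cars) and 4 were lower (Lars, Qars, Rars and Wars), and Cars2 was higher and Sars2 lower.

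**Figure D5:**
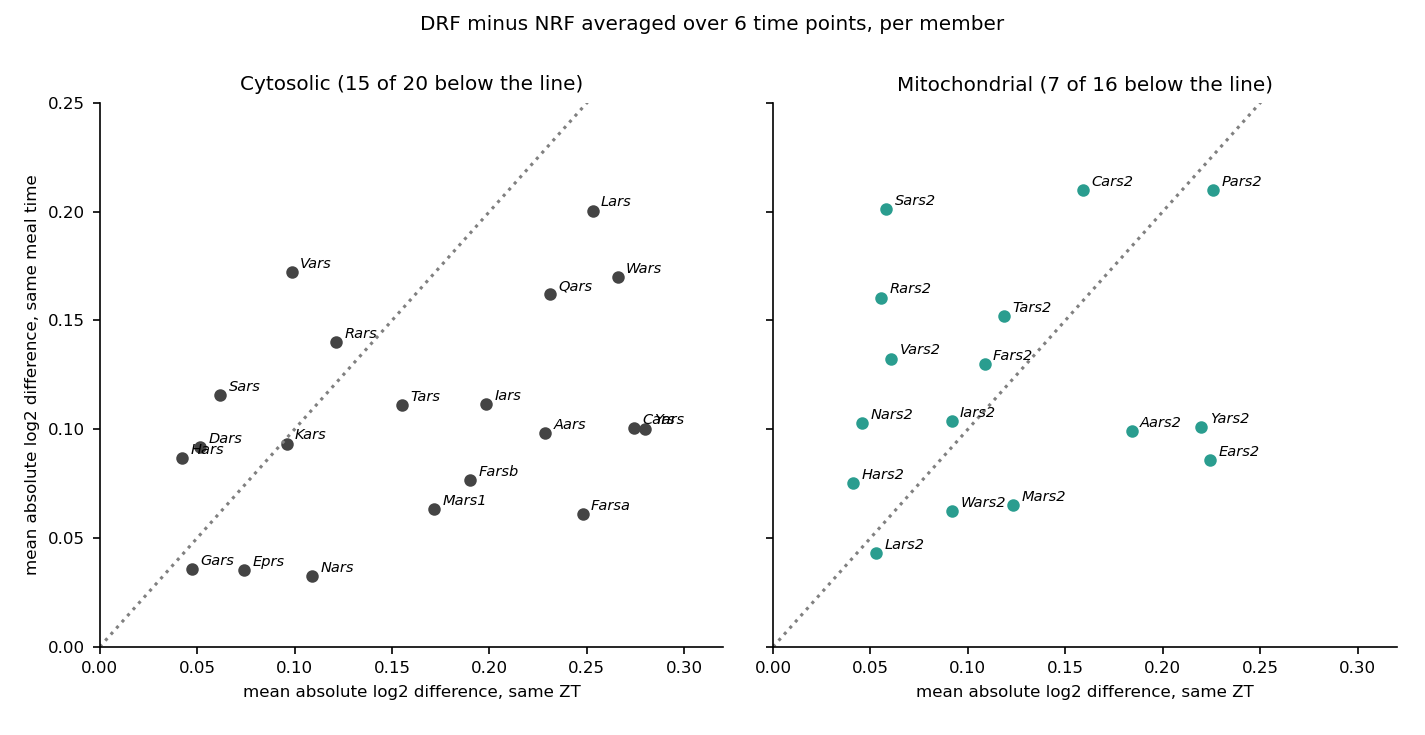
Mean absolute log2 difference between DRF and NRF over 6 times, at the same ZT (horizontal axis) and at the same meal time (vertical axis), with the line of equality, for all 36 members. Of the cytosolic members, 15 of 20 lie below the line, and of the mitochondrial members 7 of 16.

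The level averaged over the day did not pass for any member, where 9.07% of all genes passed in limma. At an unadjusted p under 0.05 there were 7 cytosolic members and 1 mitochondrial member, against 22.2% of all genes. After rescaling 3 cytosolic members passed the adjusted threshold, where 565 of the 12232 genes were higher and 627 lower. The largest difference in the cytosolic set was that of Wars (-0.10 ± 0.03 log2, limma, adjusted p = 0.0582). The share of higher calls over all genes was 34.5% in the main scaling and 47.4% after rescaling. Between ZT24 and ZT0 of the same regimen no member passed in limma, where 0.67% of all genes passed under NRF and 0 under DRF. At an unadjusted p under 0.05 there was 1 mitochondrial member (Aars2, limma, adjusted p = 0.117) under NRF, against 7.67% of all genes. Under DRF there was none, against 498 of all genes tested (4.07%).

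Where the same amino acid has an enzyme in each compartment, some pairs ran together and others apart. Yars and Yars2 had fitted NRF peaks at ZT20.4 and ZT21.7 and fitted DRF peaks at ZT10.3 and ZT10.4. Cars and Cars2 had NRF amplitudes of 0.26 log2 each, with fitted peaks at ZT19.7 and ZT23.2, but DRF amplitudes of 0.18 and 0.06 log2. Farsa peaked at ZT20.2 under NRF and Fars2 at ZT7.7. Lars had an NRF amplitude of 0.31 log2 and Lars2 one of 0.05 log2, which did not pass (limma, adjusted p = 0.349). The difference within a pair was not tested.

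By class, the differential rhythm was called in 7 of 10 cytosolic enzymes of class I and 6 of 10 of class II, against 45.4% of all genes. Of the 8 enzymes of the multi-tRNA synthetase complex 5 passed (Iars, Kars, Lars, Mars1 and Qars), of which 2 were displaced by at least 8 h. After rescaling 7 passed, of which 2 were so displaced, where 6086 of the 12232 genes passed and 3235 were so displaced. In the main scaling 8 of the 12 cytosolic enzymes outside the complex passed. Each of these 8 was displaced by at least 8 h, as were 2676 of the 5551 genes with a differential rhythm. All 3 scaffold genes of the complex passed too. Eef1e1 was at 12.8, 13.1, 11.9 and 12.0 TPM in the NRF libraries of ZT12 and at 19.2, 17.0, 21.7 and 19.9 TPM in the DRF libraries, without overlap between regimens (0.60 ± 0.08 log2, limma, adjusted p = 2.44e-07). Aimp2 had fitted peaks at ZT20.1 under NRF and ZT6.8 under DRF, and Aimp1 at ZT8.4 and ZT3.8. Of the 3 scaffold genes, 1 had a called DRF rhythm, and it was not Aimp1. The DRF peaks are therefore less certain than the NRF peaks. The fitted NRF peak of Aimp1 was near that of Qars (ZT8.2). The peaks of the other 2 scaffold genes were near that of Aars (ZT21.1).

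Other steps of tRNA charging and translation were counted from fixed gene lists. The share of all genes with a differential rhythm was 45.4%, and several of these lists lay near it. Of the cytosolic elongation factors 3 of 5 had a differential rhythm. Eef2, which moves the ribosome along the message, was higher under DRF at ZT20 by 0.32 ± 0.07 log2 (limma, adjusted p = 0.00154), Eef1a1, which brings charged tRNA to the ribosome, at ZT20 by 0.25 ± 0.07 log2, and Eef1g at ZT12 by 0.28 ± 0.05 log2. Of the mitochondrial translation factors 5 of 5 with recovered values did, with the release factor Mtrf1l higher at ZT4 (0.42 ± 0.08 log2, adjusted p = 0.000110) and the initiation factor Mtif2 and the elongation factor Gfm1 lower at ZT0 (-0.24 ± 0.05 and -0.23 ± 0.07 log2). Of the genes for amidation and formylation of charged mitochondrial tRNAs 2 of 4 did. Qrsl1, a subunit of the amidotransferase that makes glutamine tRNA in mitochondria from the product of Ears2, was at 13.3, 12.5, 13.3 and 14.1 TPM under NRF and 19.4, 18.3, 18.98 and 20.6 TPM under DRF at ZT4, higher by 0.51 ± 0.09 log2 (limma, adjusted p = 1.99e-05). Mtfmt, which formylates the initiator methionine tRNA of mitochondria, was higher at ZT8 by 0.26 ± 0.07 log2, and Gatb, a partner subunit of Qrsl1, lower at ZT4 by -0.19 ± 0.07 log2, a call that was lost after rescaling. The tRNA maturation and export genes had a differential rhythm in 2 of 7, Trmt1 and Trmt61a, which encode tRNA methyltransferases. Trmt61a was higher under DRF at ZT4 by 0.63 ± 0.11 log2, Trmt1 at ZT0 by 0.27 ± 0.06 log2 and Thg1l at ZT12 by 0.30 ± 0.09 log2.

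Of 17 tested genes of the ATF4 and amino acid response, 10 had a differential rhythm, against 45.4% of all genes, and 11 differed at one ZT or more, against 56.5%. Atf4 itself was at 124, 114, 119 and 117 TPM in the NRF libraries of ZT12 and at 175, 174, 156 and 174 TPM in the DRF libraries. The groups did not overlap, and DRF was higher by 0.51 ± 0.10 log2 (limma, adjusted p = 0.000193). Its fitted peak lay at ZT18.1 under NRF and ZT9.1 under DRF, beside NRF peaks between ZT19.6 and ZT22.9 in the larger cytosolic group. At ZT0, where 12.6% of all genes were higher and 18.2% lower, 2 of the 17 genes were higher and 6 lower under DRF. At ZT12, where 7.3% of all genes were higher and 11.4% lower, 3 were higher and 1 lower. The largest called difference of this list was that of Chac1, a glutathione-degrading enzyme, at ZT20 (-1.44 ± 0.31 log2, limma, adjusted p = 0.000706), and Chac1 had a mean of 2.82 TPM. Next came Mthfd2, of mitochondrial folate metabolism, at ZT20 (-0.73 ± 0.20 log2, adjusted p = 0.00784) and Ddit3, a stress transcription factor whose gene shares 71 bases with Mars1, at ZT16 (-0.73 ± 0.13 log2, adjusted p = 0.000603).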

How the data were processed

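Per the labels, poly(A) RNA was read from both ends over 100 bases on a BGISEQ-500. The table the authors deposited is called TPM there, but its values behave as a score, namely log2(CPM + 1) of each gene divided by a gene length and scaled to nearly one sum in every library, with column sums of 999145 to 999753 and a largest value of 1266. The submitters' processing notes name HISAT2, Bowtie2, RSEM, mm10 and GRCm38.p6 with no role or version, and the strand setting is not given in the sources used here. The planned design had assumed linear TPM.

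Reads were recovered by finding the effective library size (24.8 M to 28.9 M reads) and the length at which values became whole within 0.02 reads (for large counts, at most 0.1). This gave 15373 of 17027 genes, 14304 with the annotated and 1069 with a searched length, and 98.5% of their values were whole. TPM was recomputed from these, and 1654 genes were left out. All 36 members were kept, and Farsb was kept with fractional reads (10.7% whole at its annotated length).

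Tests used limma 3.58.1 with a mean-variance trend in R 4.3.3 on log2(TPM + 1) of the 12232 genes whose mean TPM reached 1, with Benjamini-Hochberg adjustment over all of them and a threshold of 0.05. Cosine and sine terms of 24 h and 12 h gave the rhythms, and group contrasts gave the differences, with ZT0 and ZT24 averaged. A fold on this scale understates the change of low genes. The calls of an NRF 24-h rhythm and of a differential rhythm were tried on simulated data, with 24-h cosines added to NRF libraries alone. The 12-h terms, the group contrasts and the library scaling were not tried in this way. Python 3.11.15 with pandas 2.3.3 was used for the counts and promoters. Members with values in every library were the 4 cytosolic and 3 mitochondrial ones with the largest NRF amplitude, the 3 and 2 with the largest DRF 12-h amplitude and the 3 of each set with the largest difference at a shared ZT, among called members, with their partners for the same amino acid. From each pathway list the 3 genes with the largest called difference were named, and Atf4 was named after its values were seen. The members and lists were chosen with earlier results of these data known. Alternatives were another library scaling, the deposited values, another pseudocount (0.1), filters, a replicate block and leaving out replicates, ZT24 or libraries. One NRF ZT24 column carries a number that is not among the labels' replicate numbers and was kept as a library with no number.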

Additional observations from a re-analysis of the deposited data

Results flagged for a closer look

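Single libraries standing apart from the other 3 of their group were looked for in the 210 groups of the 15 members described most closely, and 8 were found (3.81%), where chance marks about 1 in 20 groups. In Lars these were a DRF ZT0 library at 40.8 TPM and an NRF ZT16 library at 24.1 TPM. In Qars a DRF ZT16 library stood at 48.8 TPM, in Cars an NRF ZT4 library at 10.6 TPM, and in Wars an NRF ZT12 library at 46.6 TPM. In the mitochondrial set they were an NRF ZT16 library of Lars2 at 12.9 TPM, a DRF ZT16 library of Fars2 at 30.0 TPM and an NRF ZT24 library of Aars2 at 17.4 TPM.

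The rhythm differed between DRF and NRF, by the limma interaction test adjusted over all genes, in 22 members. In the cytosolic set the adjusted p was 3.81e-07 for Aars, 2.98e-09 for Cars, 4.38e-06 for Farsa, 1.11e-05 for Farsb, 0.00190 for Iars, 0.00573 for Kars and 0.000187 for Lars. It was 3.58e-06 for Mars1, 0.000546 for Nars, 5.95e-09 for Qars, 0.00212 for Tars, 0.0303 for Wars and 3.3e-07 for Yars. In the mitochondrial set it was 2.94e-06 for Aars2, 2.12e-06 for Cars2, 0.000993 for Ears2, 0.000787 for Fars2, 0.0220 for Iars2, 0.00122 for Pars2, 0.000333 for Tars2, 0.0166 for Wars2 and 2.09e-06 for Yars2.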

How the results depend on the processing

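Counts of members called moved by over 1.5 times under these alternatives. The DRF rhythm count of the cytosolic set (9) ranged from 2 to 8 when 1 replicate was left out and was 5 without ZT24, and that of the mitochondrial set (5) ranged from 3 to 5. The cytosolic 12-h count under DRF (10) ranged from 5 to 9 with 1 replicate left out, and the mitochondrial one (3) was 5 after median-of-ratios rescaling and 5 with the effective library sizes of the authors. The cytosolic 12-h count under NRF (0) was 2 with either scaling. The cytosolic count for the 12-h difference (0) was 4 with either scaling, 2 on the deposited values and 1 without the libraries high in adipose markers. The cytosolic count for the daily mean (0) was 3 with either scaling, 1 on the deposited values and 0 to 2 with 1 replicate left out. The cytosolic meal-matched count (10) was 16 with either scaling and ranged from 6 to 9 with 1 replicate left out, and the mitochondrial one (10) was 5 on the deposited values and ranged from 6 to 11. After median-of-ratios rescaling the counts over all genes rose too, from 84 to 148 for the NRF 12-h component and from 430 to 682 for the 12-h difference. The meal-matched count over all genes rose from 6878 to 7402. The use of the authors' library sizes and the omission of the library with no number or of those high in adipose markers were chosen after seeing the data. The cause was not tested.

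Of 405 values of single members under 14 alternatives, 384 kept their direction and their side of the threshold, 16 lost the call, 5 gained it and 0 reversed. Those that lost it were the differential rhythms of Wars, Wars2 and Fars2 and single differences of Fars2 (ZT20), Ears2 (ZT4) and Aars2 (ZT12).

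Libraries with the same replicate number did not deviate together on average, with a mean correlation of 0.0108 for the same number and -0.000986 for other numbers. The numbers were therefore not taken to pair the libraries. Single pairs with the same number varied widely, with 140 of 351 over 0.1 and the lowest at -0.783. The share over 0.1 among pairs with other numbers was not counted. With the replicate block the cytosolic counts were 13 for the NRF rhythm, 8 for the DRF rhythm, 13 for the differential rhythm and 10 for the DRF 12-h component, and it changed no call of a member described closely.

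The planned count test on recovered reads with edgeR was not run.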
